A study of Mus musculus with 8 samples.

Results

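The tRNAs described here are those that can carry queuosine, the tRNAs for histidine, aspartate, asparagine and tyrosine. Every row of the deposited table was taken whose name pairs a numbered tRNA copy with His, Asp, Asn or Tyr and an anticodon, whatever its level. This gave 48 of the 964 rows, out of 328 tRNA copies in all. They are 10 copies of tRNA-His-GTG, 1 of tRNA-His-ATG, 16 of tRNA-Asp-GTC, 11 of tRNA-Asn-GTT and 10 of tRNA-Tyr-GTA, where the last letters are the anticodon written as DNA.

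Small RNA was sequenced from mouse bone marrow cells labelled GMLP, granulocyte-monocyte-lymphoid progenitors, in 4 iMLL-ENL and 4 WT libraries. iMLL-ENL cells carry an inducible form of MLL-ENL, a leukaemia fusion of the histone methyltransferase MLL with ENL, while WT cells do not. Cells of both genotypes were kept in culture for 3 days with doxycycline, the inducer, so the drug is shared by the groups and no library without it was compared. The labels used here give no age and no promoter for the fusion, and they do not say that each replicate is a different mouse, so a p-value here reflects only the variation among these libraries, some of which may be technical. The table holds only small non-coding RNA rows and no marker of GMLPs, so the cell type could not be checked from it, and the level of the fusion was not analysed here. The libraries are bulk samples, so fewer cells with a given tRNA and less of it per cell cannot be told apart.

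Queuosine is a modified guanosine found at position 34, the first base of the anticodon, in the tRNAs that read the codons ending in U or C for these amino acids. In mammals its base, queuine, comes from diet and gut bacteria and is put in place of guanine by the tRNA-guanine transglycosylase made of QTRT1 and QTRT2. In tRNA-Asp the queuosine is further mannosylated and in tRNA-Tyr galactosylated, while tRNA-His and tRNA-Asn keep the plain form. tRNA-His-ATG has A and not G at this position in its gene, so it lacks the base that the enzyme exchanges. The libraries count reads per tRNA copy and do not measure the modification, and without read lengths a whole tRNA and a fragment of it count alike.

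RefSeq annotates genes for each of these tRNAs on GRCm38.p6, a patch release of the build that the submitters' processing notes name. The 10 tRNA-His-GTG genes, each 72 bases long, lie on 3 chromosomes, and the 16 tRNA-Asp-GTC genes, also of 72 bases, on 6. The 13 tRNA-Asn-GTT genes of 74 bases lie on 7 chromosomes and the 10 tRNA-Tyr-GTA genes of 86 to 93 bases on 4. On chromosome 3, 6 tRNA-His-GTG and 6 tRNA-Asn-GTT genes lie interleaved between 96322074 and 96500437. On chromosome 1, 5 tRNA-Asp-GTC genes and 1 tRNA-Asn-GTT gene lie between 171033942 and 171102442, and 6 tRNA-Tyr-GTA genes lie on chromosome 13 between 23425646 and 23467165. By the GENCODE M21 annotation 39 of the 50 genes are intergenic, 9 lie in an intron and 2 overlap an exon of another gene. The copy numbers of the table (tRNA291 and the like) are not paired with these genes in the sources used here, so no copy is given a position.

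The values are reads per 1000000 (RPM) of a library total of about 5910000 to 9270000 reads, as estimated from the smallest step between values, of which the rows of the table hold 26.0% to 38.4%. A level of 3 reads lay at 0.32 to 0.51 RPM, which covers counting error only, and every copy was above it in every library. WT replicate 2 stood apart: its mean correlation with its own group was 0.908, against 0.990 to 0.994 for the iMLL-ENL libraries. The other WT libraries were at 0.955 to 0.968, and at 0.985 to 0.988 when WT replicate 2 was left out. Of 53 RNA families above 100 RPM, 8 were more than 2-fold higher in WT replicate 2 than in the mean of the other WT libraries. Among them were tRNA-Asp-GTC at 4.07-fold and tRNA-His-GTG at 3.07-fold. tRNA-Tyr-GTA was at 1.03-fold and the median family at 0.97-fold. The tRNA-His-GTG and tRNA-Asp-GTC results are therefore also given without it.

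Reads of tRNA-His-GTG and tRNA-Asp-GTC were lower in iMLL-ENL cells, and those of tRNA-Asn-GTT and tRNA-Tyr-GTA were higher on the deposited scale. Together the 48 copies took 11.3%, 11.7%, 11.8% and 12.5% of all tRNA reads in iMLL-ENL replicates 1 to 4, against 21.2%, 58.6%, 17.0% and 15.5% in WT replicates 1 to 4. The groups did not overlap, and the iMLL-ENL libraries lay within a much narrower range. Most of this share was tRNA-Asp-GTC alone, at 9.55% to 10.9% in iMLL-ENL and 13.0% to 50.7% in WT. In RPM the 48 copies summed to 25255 ± 2043 in iMLL-ENL and 86480 ± 72877 in WT (SD, n = 4 each), or 50377 ± 12085 in WT without replicate 2. The other 280 tRNA copies summed to 187966 ± 12559 RPM in iMLL-ENL and 206151 ± 48617 RPM in WT, with overlap.

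**Figure D1:**
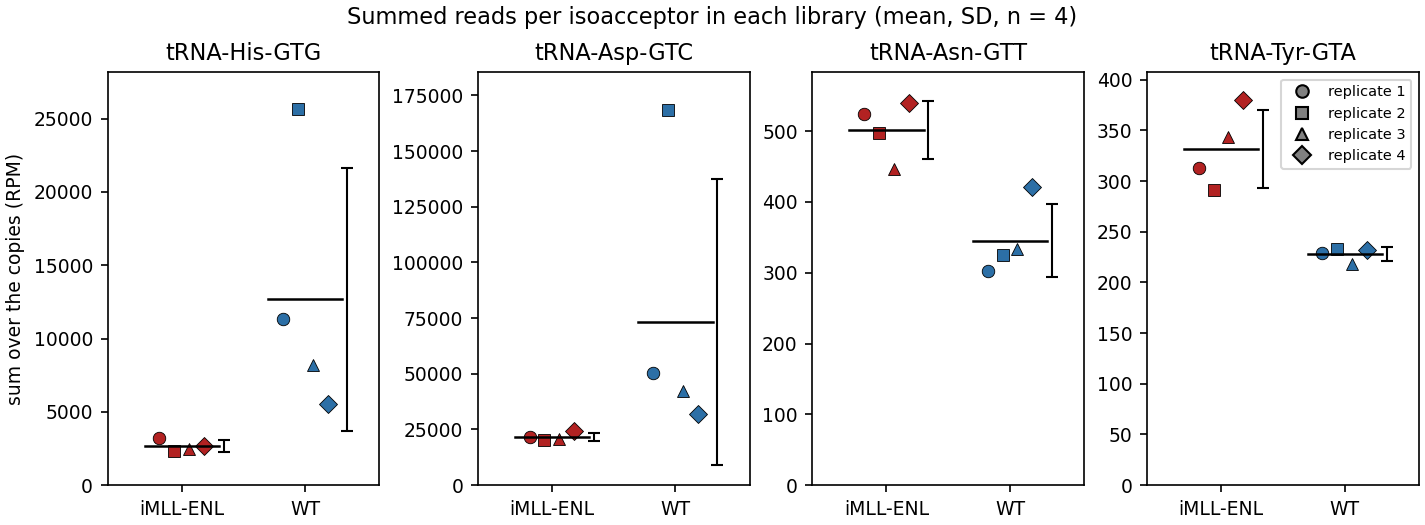
Summed reads (RPM, linear axis from 0) of the 4 main isoacceptors in each library, with the iMLL-ENL libraries on the left of each panel and the WT libraries on the right. Lines are means, bars are SD (n = 4) and symbols are replicate numbers; tRNA-His-GTG and tRNA-Asp-GTC are lower in all iMLL-ENL libraries, WT replicate 2 is far above the rest in both, and tRNA-Asn-GTT and tRNA-Tyr-GTA are higher in all iMLL-ENL libraries.

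tRNA-His-GTG, which decodes both histidine codons, fell most of these isoacceptors. Its copies summed to 3200, 2300, 2460 and 2674 RPM in iMLL-ENL replicates 1 to 4, against 11329, 25656, 8226 and 5535 RPM in WT replicates 1 to 4. All 4 iMLL-ENL libraries lay below the lowest WT library. The mean was 2659 ± 392 RPM in iMLL-ENL and 12687 ± 8965 RPM in WT (SD, n = 4 each), a ratio of 0.210. In limma, which shares variance across the 67 families of the table and adjusts over them, the log2 fold change was -2.02 ± 0.41 (SE, adjusted p = 0.0066). With an adjusted p under 0.05 as the call, 44.8% of the families were called, 17.9% lower and 26.9% higher in iMLL-ENL, and of the 48 tRNA isoacceptors 45.8%, 22.9% in each direction. Groups that did not overlap were seen in 47.8% of the families, with lower values in iMLL-ENL in 16.4% and higher ones in 31.3%. Without WT replicate 2 the WT mean was 8363 ± 2899 RPM (n = 3) and the log2 fold change -1.60. The change was the second lowest of the 48 tRNA isoacceptors, and its call held under each of the 7 other scalings and with any 1 library left out.

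Of the 10 tRNA-His-GTG copies 8 fell and 2 did not pass the test, where 8.53% of the 633 tested rows, and 19.1% of the 278 tested tRNA rows, were called lower. The count was 10 after TMM scaling and 4 when scaled to the other tRNA rows. The fall was nearly the same in the 8 abundant copies, whose log2 fold changes were -2.12 to -1.98. tRNA291-HisGTG, the most abundant, was at 509.84, 366.72, 382.94 and 409.82 RPM in the iMLL-ENL libraries, against 1789, 4110, 1300 and 866 RPM in the WT libraries. The groups were separate, with WT replicate 2 highest, and the log2 fold change was -2.03 ± 0.42 (SE, adjusted p = 0.0125, limma over the 633 tested rows). tRNA587-HisGTG and tRNA295-HisGTG, the next in abundance, changed by -1.99 and -1.98, and tRNA1691-HisGTG had the lowest log2 fold change at -2.12 ± 0.42 (adjusted p = 0.0101), at 267 ± 43 RPM in iMLL-ENL and 1364 ± 966 RPM in WT. Without WT replicate 2 the WT mean of tRNA1691-HisGTG was 898 ± 307 RPM (n = 3) and its log2 fold change -1.70, and those of tRNA291-HisGTG, tRNA587-HisGTG and tRNA295-HisGTG were -1.61, -1.56 and -1.56, all still called.

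The 2 tRNA-His-GTG copies that did not pass were also the 2 with the fewest reads, and in both the groups overlapped. tRNA293-HisGTG, named after its values were seen, had 59.97 ± 11.3 RPM in iMLL-ENL and 172 ± 118 RPM in WT (log2 fold change -1.28 ± 0.44, adjusted p = 0.0570). Without WT replicate 2 tRNA293-HisGTG passed the test, at -0.87 (adjusted p = 0.0278, WT mean 118 ± 55 RPM, n = 3). tRNA749-HisGTG was at 22.72, 24.37, 17.74 and 18.41 RPM in the iMLL-ENL libraries, against 32.05, 63.51, 28.41 and 21.73 RPM in the WT libraries. Only the lowest WT library reached into the iMLL-ENL range, and the log2 fold change was -0.68 ± 0.30 (adjusted p = 0.117). tRNA749-HisGTG passed the test under TMM scaling (-0.93, adjusted p = 0.0466). Its log2 fold change was -0.38 (0.104) when WT replicate 2 was left out.

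tRNA717-HisATG, the only copy with an A in the first anticodon position, was at a level of about 7 to 25 reads per library. It had 2.23, 2.16, 1.82 and 3.13 RPM in iMLL-ENL replicates 1 to 4, against 1.68, 1.95, 1.18 and 3.08 RPM in WT replicates 1 to 4. The groups overlapped, and its lowest value corresponds to about 7 reads in WT replicate 3. It did not reach the filter for single rows and is the 1 member not tested there. Its log2 fold change as a family was 0.19 ± 0.23 (adjusted p = 0.513), and TMM scaling over all rows turned it to -0.08.

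tRNA-Asp-GTC, the sole aspartate isoacceptor among these rows, had by far the most reads and also fell. Its copies summed to 21785, 20267, 20702 and 24285 RPM in iMLL-ENL replicates 1 to 4, against 50309, 168573, 42159 and 31830 RPM in WT replicates 1 to 4. The groups did not overlap, and WT replicate 2 held more than the other WT libraries together. The mean was 21760 ± 1800 RPM in iMLL-ENL and 73218 ± 64018 RPM in WT (SD, n = 4 each), a ratio of 0.297. The log2 fold change was -1.42 ± 0.46 (adjusted p = 0.0371, limma), and without WT replicate 2 it was -0.91 with a WT mean of 41433 ± 9261 RPM (n = 3, adjusted p = 6.7e-08). That last p-value leans on variance shared across families, after the library farthest from the others was dropped. An exact permutation of 4 against 3 libraries cannot go below 0.0571. The call of tRNA-Asp-GTC ended after quantile normalization (-0.52, adjusted p = 0.27) and when scaled to the other tRNA rows (-1.32, 0.133). It also ended when WT replicate 1 or any 1 of the iMLL-ENL libraries was left out (adjusted p up to 0.0809). With replicate numbers fitted as a block in limma, a pairing the labels do not state, the adjusted p was 0.0578.

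Of the 16 tRNA-Asp-GTC copies 9 fell and 7 did not pass the test, where 8.53% of the tested rows and 19.1% of the tested tRNA rows were called lower. The groups of 15 copies did not overlap, and non-overlap with lower values in iMLL-ENL was seen in 11.4% of the tested rows. The count of 9 became 15 without WT replicate 2 or 4, 1 without WT replicate 3, and 0 when WT replicate 1 or any 1 of the iMLL-ENL libraries was left out, where limma still gave 14 or 15 copies an unadjusted p under 0.05. It was 15 after TMM scaling and 0 when scaled to the other tRNA rows (6 at an unadjusted p under 0.05). With the replicate block it was 1 (15 at an unadjusted p under 0.05). The 15 copies above 1000 RPM had log2 fold changes of -1.61 to -1.27 and adjusted p of 0.0311 to 0.0663. tRNA866-AspGTC, the most abundant and the one that changed most, was at 1890, 1727, 1834 and 2107 RPM in the iMLL-ENL libraries, against 5130, 15998.5, 4318 and 3110 RPM in the WT libraries. It was lower in every iMLL-ENL library (-1.61 ± 0.45, adjusted p = 0.0311), and without WT replicate 2 it changed by -1.12. tRNA84-AspGTC had 1612 ± 108 RPM in iMLL-ENL and 5534 ± 4880 RPM in WT (-1.44 ± 0.47, adjusted p = 0.0475). tRNA707-AspGTC had 1622 ± 121 RPM in iMLL-ENL and 5090 ± 4502 RPM in WT and did not pass the test (-1.31 ± 0.47, adjusted p = 0.0622). Without WT replicate 2 the WT mean was 3112 ± 722 RPM for tRNA84-AspGTC (-0.92, adjusted p = 0.000397) and 2854 ± 638 RPM for tRNA707-AspGTC (n = 3), which was then called (-0.79, adjusted p = 0.0011), as it was after TMM scaling (-1.57, 0.0348).

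tRNA511-AspGTC, the least abundant aspartate copy, was the 1 whose groups overlapped. It was at 93.22, 131.12, 87.57 and 102.33 RPM in the iMLL-ENL libraries, against 97.70, 241.97, 86.91 and 93.35 RPM in the WT libraries. Apart from WT replicate 2 the values of both lay in one range. Its log2 fold change was -0.20 ± 0.32 (adjusted p = 0.675), and without WT replicate 2 it was 0.14.

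**Figure D2:**
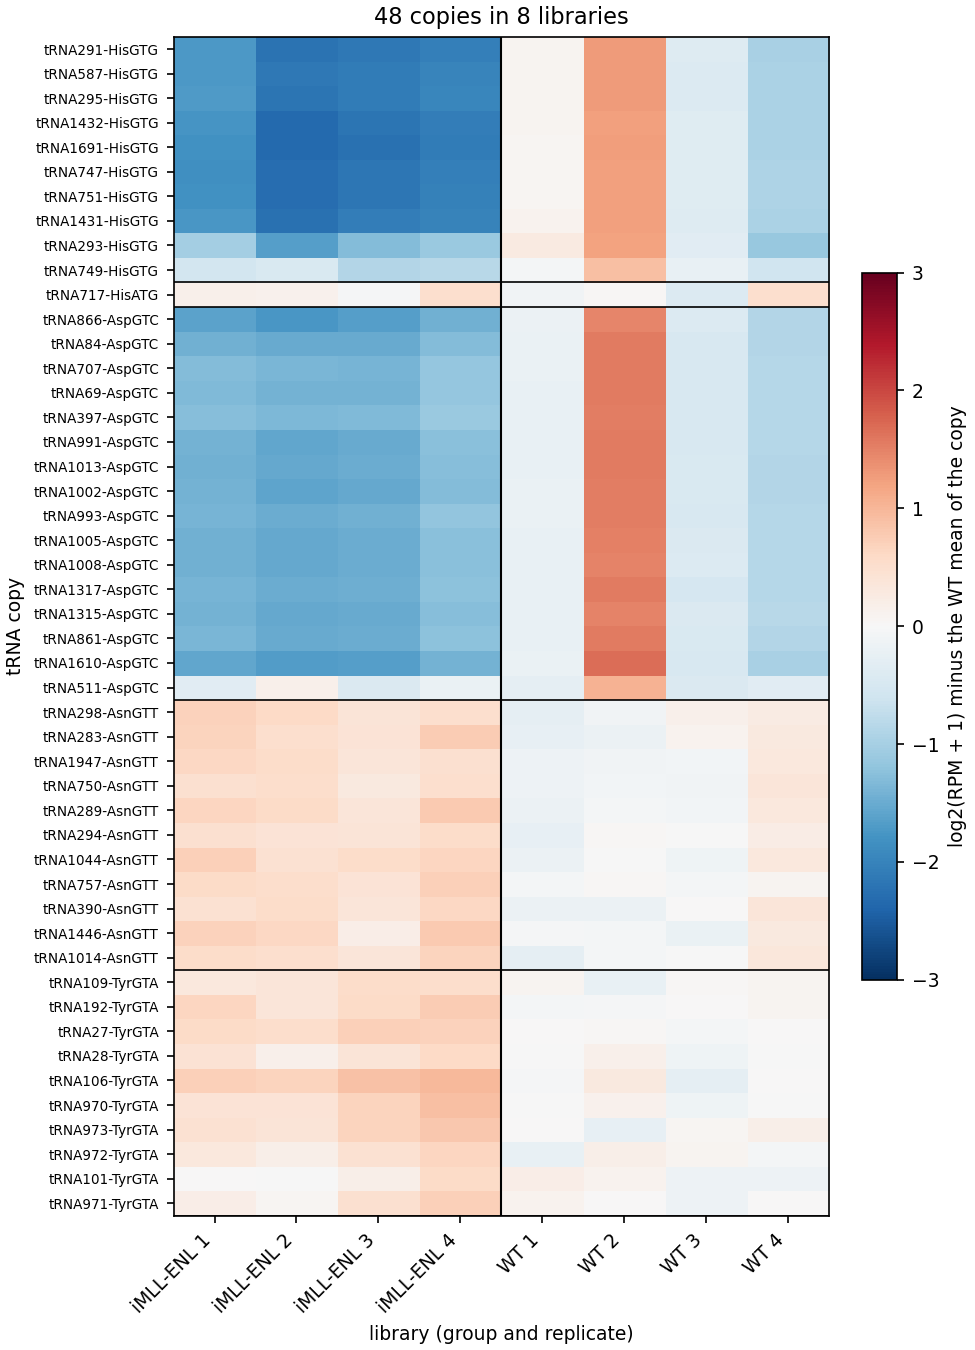
The 48 copies (rows, by isoacceptor and then by abundance) in the 8 libraries (columns, iMLL-ENL on the left), coloured by log2(RPM + 1) minus the WT mean of the copy. The abundant tRNA-His-GTG and tRNA-Asp-GTC copies share 1 pattern across the libraries, low in iMLL-ENL and highest in WT replicate 2, with smaller differences in tRNA749-HisGTG and tRNA511-AspGTC, while the tRNA-Asn-GTT and tRNA-Tyr-GTA copies are slightly higher in iMLL-ENL.

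tRNA-Asn-GTT, which reads both asparagine codons, rose on the deposited scale. Its copies summed to 524.15, 498.06, 446.39 and 539.59 RPM in iMLL-ENL replicates 1 to 4, against 301.84, 325.48, 333.94 and 420.77 RPM in WT replicates 1 to 4. The lowest iMLL-ENL library lay just above the highest WT library, replicate 4. The mean was 502 ± 41 RPM in iMLL-ENL and 346 ± 52 RPM in WT (SD, n = 4 each), a ratio of 1.45, with a log2 fold change of 0.55 ± 0.13 (adjusted p = 0.0124, limma). The median log2 fold change of all tested rows was 0.31 on this scale, and it was 0.06 after TMM scaling and -0.08 after TMM scaling over all rows. The rise of tRNA-Asn-GTT was not called after these (0.28, adjusted p = 0.119, and 0.15, adjusted p = 0.442) or when scaled to the other tRNA rows (0.65, 0.0603). Relative to the median of the tested rows the change was 0.22 to 0.25 under the 7 scalings, the deposited one included, that apply 1 factor per library. Such a factor shifts tRNA-Asn-GTT and the median nearly alike, so this agreement was fixed in advance and adds no support.

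Of the 11 tRNA-Asn-GTT copies 10 rose on the deposited scale and 1 did not pass the test, where 20.4% of the tested rows and 18.3% of the tested tRNA rows were called higher. After TMM scaling limma called 0 (3 at an unadjusted p under 0.05), and after TMM scaling over all rows 0 (0 at an unadjusted p under 0.05). Without each library in turn the count ranged from 0 (without WT replicate 1, with 10 at an unadjusted p under 0.05) to 11; it was 1, 2, 3 and 1 without iMLL-ENL replicates 1 to 4 and 4 without WT replicate 3. The groups of 8 copies did not overlap, against 27.2% of the tested rows with non-overlap and higher values in iMLL-ENL. The copies lay close together, with means of 33.7 to 41.3 RPM and log2 fold changes of 0.45 to 0.59. tRNA298-AsnGTT, the most abundant, was at 54.49, 50.46, 43.90 and 47.60 RPM in the iMLL-ENL libraries, against 27.44, 30.65, 36.86 and 39.39 RPM in the WT libraries. It was higher in every iMLL-ENL library (0.54 ± 0.15, adjusted p = 0.0303). tRNA283-AsnGTT and tRNA1947-AsnGTT, the next in abundance, changed by 0.58 ± 0.16 (adjusted p = 0.0295) and 0.50 ± 0.15 (0.0335). tRNA1044-AsnGTT had the highest log2 fold change, 0.59 ± 0.15 (0.0223), and tRNA750-AsnGTT the lowest, 0.45 ± 0.15 (0.0532, with overlap).

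tRNA-Tyr-GTA, the tyrosine isoacceptor, whose genes contain an intron, also rose on the deposited scale. Its copies summed to 312.63, 291.13, 343.46 and 380.0 RPM in iMLL-ENL replicates 1 to 4, against 229.59, 232.75, 218.48 and 232.24 RPM in WT replicates 1 to 4. The groups did not overlap, and WT replicate 2 was like the other WT libraries here. The mean was 332 ± 39 RPM in iMLL-ENL and 228 ± 7 RPM in WT (SD, n = 4 each), a ratio of 1.45, with a log2 fold change of 0.53 ± 0.11 (adjusted p = 0.0066, limma). As for asparagine, the rise was not called after TMM scaling (0.27, adjusted p = 0.105), TMM scaling over all rows (0.13, 0.442) or scaling to the other tRNA rows (0.63, 0.0628). Relative to the median of the tested rows it was 0.21 to 0.23 under the 7 scalings with 1 factor per library. That agreement, too, was fixed in advance.

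Of the 10 tRNA-Tyr-GTA copies 6 rose on the deposited scale and 4 did not pass the test, where 20.4% of the tested rows and 18.3% of the tested tRNA rows were called higher, and 1 rose after TMM scaling. The count was 3 without iMLL-ENL replicate 3 or 4 or WT replicate 3, and 2 without WT replicate 1. tRNA106-TyrGTA changed most: it was at 35.32, 34.40, 39.69 and 43.09 RPM in the iMLL-ENL libraries, against 20.72, 26.50, 17.42 and 21.44 RPM in the WT libraries. All iMLL-ENL values were higher (0.81 ± 0.16, adjusted p = 0.0101), and it was the copy that still rose after TMM scaling (0.55, adjusted p = 0.0153). After TMM scaling over all rows limma called 0 tRNA-Tyr-GTA copies, with 0.0726 as the lowest adjusted p. tRNA109-TyrGTA, the most abundant copy, changed by 0.44 ± 0.13 (adjusted p = 0.0380), tRNA192-TyrGTA by 0.59 ± 0.13 (0.0142) and tRNA27-TyrGTA by 0.63 ± 0.12 (0.0084). With each library left out in turn, the call of tRNA109-TyrGTA held in 1 of 8 limma fits (adjusted p up to 0.107). Those of tRNA192-TyrGTA and tRNA27-TyrGTA held in 7 and 8. tRNA101-TyrGTA had 18.45 ± 3.95 RPM in iMLL-ENL and 15.96 ± 2.14 RPM in WT with overlap (0.19 ± 0.21, adjusted p = 0.525), with a value of -0.06 after TMM scaling.

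**Figure D3:**
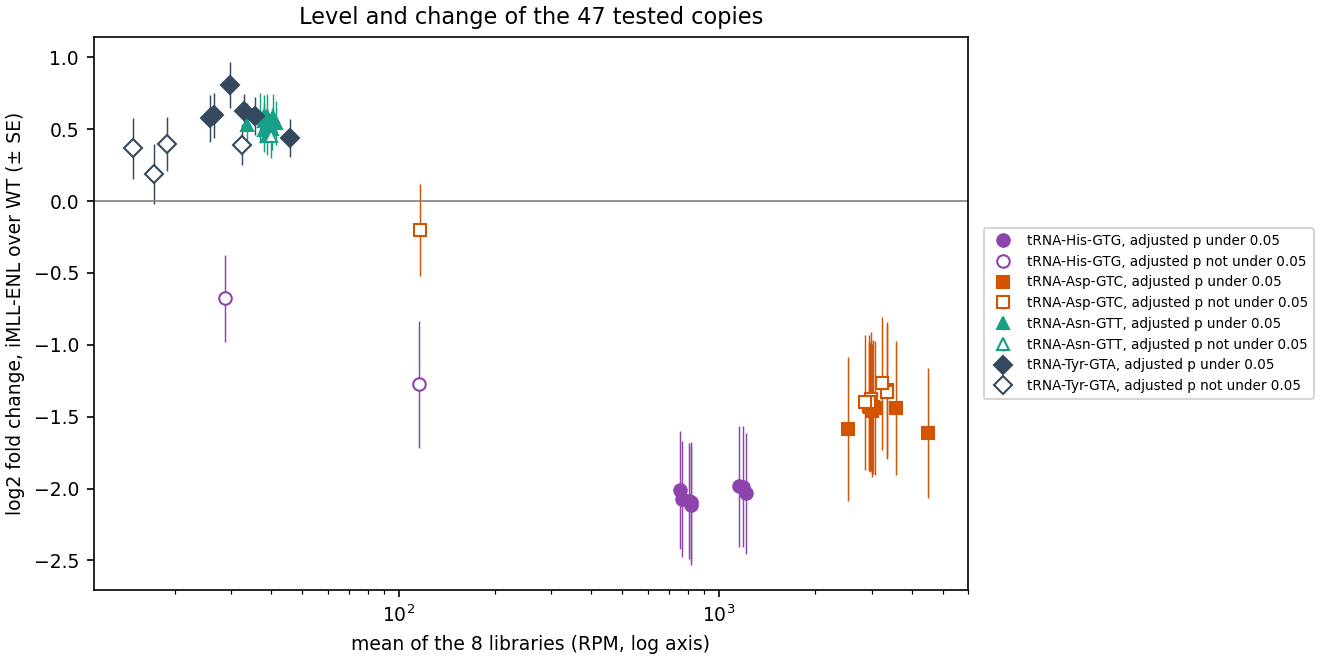
Log2 fold change (iMLL-ENL over WT, ± SE) of the 47 tested copies against their mean level over the 8 libraries (RPM, log axis), filled where the adjusted p was under 0.05. The abundant tRNA-His-GTG copies lie near -2 and the abundant tRNA-Asp-GTC copies between -1.61 and -1.27, the least abundant copy of each lies nearer to 0, and the tRNA-Asn-GTT and tRNA-Tyr-GTA copies lie between 0.19 and 0.81.

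Over all members, 16 of the 47 tested copies were called higher on the deposited scale, 17 lower and 14 not called. Of all tested rows 28.9% were called in either direction, 20.4% higher and 8.53% lower. For the tested tRNA rows these shares were 37.4%, 18.3% and 19.1%. After TMM scaling over all rows, or scaling to the other tRNA rows, 0 tRNA-Asn-GTT and 0 tRNA-Tyr-GTA copies were called higher. The groups of 14 copies did not overlap with higher values in iMLL-ENL and those of 23 with lower values. Of the tested rows 38.5% had no overlap, 27.2% with higher and 11.4% with lower values. Copies of an isoacceptor may be close in sequence, which was not examined here. How the authors' counting split reads among them is uncertain, so their counts are not taken as independent. Their levels mostly moved together. From highest to lowest the WT libraries were in the order replicate 2, 1, 3 and 4 in all 10 tRNA-His-GTG copies and in 15 of 16 tRNA-Asp-GTC copies. In all 11 tRNA-Asn-GTT copies WT replicate 4 was the highest WT library. The share of an isoacceptor's reads taken by its leading copy varied little for tRNA-His-GTG, from 15.3% to 16.02% over the 8 libraries. It was 8.52% to 10.2% for tRNA-Asp-GTC, 8.82% to 11.0% for tRNA-Asn-GTT and 14.3% to 18.1% for tRNA-Tyr-GTA. Copies with few reads varied more in proportion. tRNA293-HisGTG took 1.17% to 2.48%, tRNA749-HisGTG 0.25% to 1.06% and tRNA511-AspGTC 0.14% to 0.65% of their isoacceptor's reads. In percentage points the largest difference in the mean share of a copy between iMLL-ENL and WT was 2.10, for tRNA106-TyrGTA (11.5% and 9.40%). In proportion the mean shares of copies with few reads differed more between iMLL-ENL and WT. They were 2.25% and 1.35% for tRNA293-HisGTG, 0.79% and 0.32% for tRNA749-HisGTG, and 0.48% and 0.21% for tRNA511-AspGTC.

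Per base of gene length, intron included for tRNA-Tyr-GTA, the reads of the isoacceptors kept a wide order in both groups. It is an order of reads, and the amounts of the tRNAs themselves were not measured. On this scale tRNA-Asp-GTC had 302 ± 25 RPM per base in iMLL-ENL and 1017 ± 889 in WT, or 575 ± 129 in WT without replicate 2. tRNA-His-GTG had 36.9 ± 5.5 RPM per base in iMLL-ENL and 176 ± 125 in WT, or 116 ± 40 in WT without replicate 2. tRNA-Asn-GTT had 6.78 ± 0.55 RPM per base in iMLL-ENL and 4.67 ± 0.70 in WT, and tRNA-Tyr-GTA 3.73 ± 0.43 in iMLL-ENL and 2.56 ± 0.07 in WT (SD, n = 4 each). No neighbours in this order had overlapping ranges within a group, and tRNA-His-ATG was lowest at 0.032 ± 0.008 in iMLL-ENL and 0.027 ± 0.011 in WT.

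Ratios between isoacceptors within a library do not depend on how that library was scaled. The ratio of tRNA-His-GTG to tRNA-Asp-GTC was 0.147, 0.113, 0.119 and 0.110 in iMLL-ENL replicates 1 to 4, against 0.225, 0.152, 0.195 and 0.174 in WT replicates 1 to 4. All iMLL-ENL ratios lay below all WT ratios, with iMLL-ENL replicate 1 close to WT replicate 2. The difference in mean log2 ratio was -0.60 ± 0.15 (SE), so tRNA-His-GTG was lower relative to tRNA-Asp-GTC in iMLL-ENL, and without WT replicate 2 it was -0.70. Its exact two-sided permutation p was 0.0286, the smallest that 4 against 4 libraries can give, and 0.0343 after adjustment over the 6 ratios.

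The ratios of tRNA-His-GTG and tRNA-Asp-GTC to tRNA-Asn-GTT and tRNA-Tyr-GTA differed by more. The difference in log2 ratio was -2.57 ± 0.55 for tRNA-His-GTG to tRNA-Asn-GTT, -2.56 ± 0.48 for tRNA-His-GTG to tRNA-Tyr-GTA, -1.97 ± 0.59 for tRNA-Asp-GTC to tRNA-Asn-GTT and -1.95 ± 0.53 for tRNA-Asp-GTC to tRNA-Tyr-GTA. In each of these 4 ratios the groups did not overlap (exact permutation p = 0.0286, adjusted 0.0343). The groups were already separate in these sums on the deposited scale, in opposite directions. The separation and p were therefore fixed in advance and add no support. All 6 ratios come from 4 sums and are not independent. Without WT replicate 2 the 4 differences were -2.13, -2.15, -1.43 and -1.45. The ratio of tRNA-Asn-GTT to tRNA-Tyr-GTA was 1.68, 1.71, 1.30 and 1.42 in iMLL-ENL replicates 1 to 4, against 1.31, 1.40, 1.53 and 1.81 in WT replicates 1 to 4. These overlapped widely, and the difference in log2 ratio was 0.01 ± 0.14 (SE, exact permutation p = 0.914, adjusted 0.914).

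**Figure D4:**
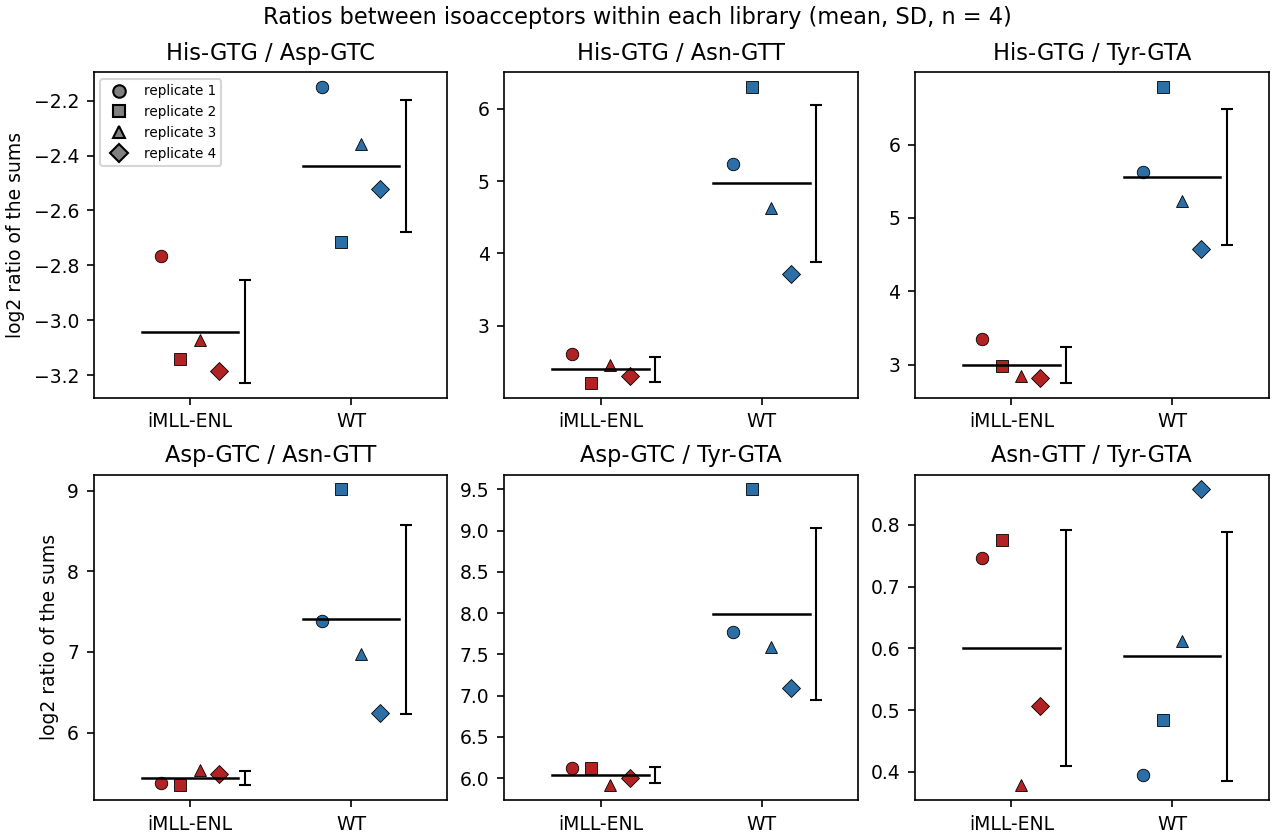
Log2 ratio of the summed reads of 2 isoacceptors in each library, with iMLL-ENL on the left and WT on the right of each panel, means as lines and SD as bars (n = 4, symbols as replicate numbers). The groups are separate in the 5 ratios that hold tRNA-His-GTG or tRNA-Asp-GTC, and overlap in the ratio of tRNA-Asn-GTT to tRNA-Tyr-GTA.

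The 4 other isoacceptors of the table that have G as the first anticodon base are not substrates for queuosine, and calls among them also went in both directions on the deposited scale. Of these, 2 were called higher, 1 lower and 1 was not called, where 26.9% of all families were called higher and 17.9% lower. The median log2 fold change was 0.29, beside 0.24 over all 67 families. tRNA-Gly-GCC, with the most reads of them, had 81475 ± 4879 RPM in iMLL-ENL and 80600 ± 25098 RPM in WT (0.08 ± 0.28, adjusted p = 0.862), with values of -0.19 after TMM scaling and -0.16 without WT replicate 2. The rest of the list, named after their values were seen, was tRNA-Ser-GCT (0.55 ± 0.13, adjusted p = 0.0114), tRNA-Phe-GAA (0.51 ± 0.14, 0.0186) and tRNA-Cys-GCA (-0.43 ± 0.15, 0.0415). The calls of tRNA-Ser-GCT and tRNA-Phe-GAA ended after TMM scaling (adjusted p of 0.119 and 0.147). Leaving out iMLL-ENL replicate 1 or 4 also ended the call of tRNA-Phe-GAA (up to 0.0602). So did quantile normalization (0.0795) and scaling to the other tRNA rows (0.102). Its sum was low, at 39.5 ± 4.1 RPM in iMLL-ENL and 27.5 ± 4.3 RPM in WT. tRNA-Cys-GCA summed to 88.5 ± 13.0 RPM in iMLL-ENL and 119 ± 13 RPM in WT, and was not called when only tested copies were summed (-0.36, 0.102). tRNA-Cys-GCA lost its call without any 1 library other than iMLL-ENL replicate 4 or WT replicate 2 (up to 0.109) and when scaled to the total of the rows (-0.14, 0.496). tRNA-Ser-GCT and tRNA-Phe-GAA had changes of the size of tRNA-Asn-GTT and tRNA-Tyr-GTA, and the difference between them was not tested.

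In the authors' deposited table, which gives their own log2 fold change and false discovery rate (FDR) per row, 10 of 10 tRNA-His-GTG copies and 15 of 16 tRNA-Asp-GTC copies were lower at an FDR under 0.05. By that rule 11.9% of the 964 rows were lower and 4.56% higher in the authors' deposited table. In the authors' deposited table the log2 fold changes were -2.75 to -1.21 for tRNA-His-GTG and -2.38 to -0.73 for tRNA-Asp-GTC, with tRNA511-AspGTC as the copy that did not pass (FDR 0.256). None of the 11 tRNA-Asn-GTT copies (0.05 to 0.20) or the 10 tRNA-Tyr-GTA copies (-0.20 to 0.43) passed in the authors' deposited table, and 0 of them had an unadjusted p under 0.05 there.

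**Figure D5:**
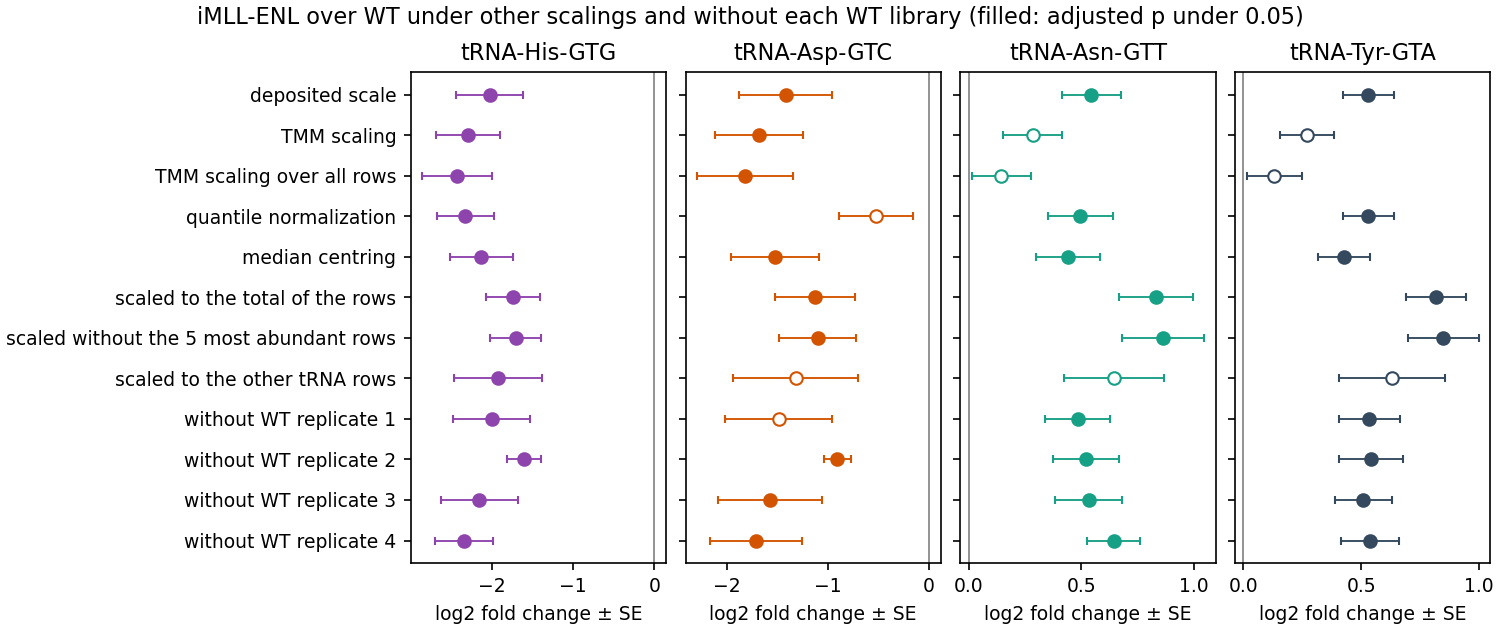
Log2 fold change (iMLL-ENL over WT, ± SE) of the 4 isoacceptor sums on the deposited scale, under 7 other scalings and without each WT library, filled where the adjusted p was under 0.05. tRNA-His-GTG is filled in every row, between -2.42 and -1.60, while the other 3 have open points: quantile normalization, scaling to the other tRNA rows and leaving out WT replicate 1 for tRNA-Asp-GTC, and both TMM scalings and scaling to the other tRNA rows for tRNA-Asn-GTT and tRNA-Tyr-GTA.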

How the data were processed

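A single table was deposited, with 1 column of values for each library, and its name calls them TPM. Within a library all values below 60 RPM are whole multiples of 1 step (within 0.0055 RPM), with no division by length, so they are treated as reads per 1000000, RPM, as the authors deposited them. The log2 fold change, p-value and FDR columns are the authors' own, per the file headers. Per the submitters' processing notes the build was GRCm38. Aligner, counting program and multiply mapped reads: not given in the sources used here.

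Rows with at least 4 libraries at 10 RPM (633; 331 were not tested) were compared, iMLL-ENL minus WT, with limma 3.58.1 (R 4.3.3, statmod 1.5.0, trended and robust) on log2(RPM + 1), two-sided, with Benjamini-Hochberg adjustment over all tested rows at 0.05. This scale understates the change of low rows. Rows summed by name into 67 families (48 tRNA isoacceptors) were tested likewise without the filter. The script was tested on simulated data. The 6 ratios between isoacceptors were compared by exact permutation over 70 assignments (scipy 1.17.1). Named copies are, per isoacceptor, the 3 most abundant and the tested ones with the highest and lowest log2 fold change, and other first-base-G isoacceptors above 1000 RPM. Alternatives were 6 scalings and 1 added after seeing the data, pseudocounts, filters, variance priors, sample weights, a replicate block and leaving out each library. The members and lists were chosen with earlier results of these data known. Gene positions are from RefSeq and GENCODE M21. No count model was run, since the values are scaled.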

Additional observations from a re-analysis of the deposited data

Results flagged for a closer look

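Of 74 groups of 4 libraries examined, 9 held 1 library far from the other three by Dixon's criterion, and chance flags about 1 in 20. Of these, 7 are WT replicate 2. In it the tRNA-Asp-GTC sum was 168573 RPM, tRNA866-AspGTC was at 15998.5 RPM, tRNA84-AspGTC at 12799.7 RPM, tRNA707-AspGTC at 11797.6 RPM and tRNA511-AspGTC at 241.97 RPM. The 48 copies summed to 194789 RPM there, 58.6% of all tRNA reads. Copies of an isoacceptor share reads, so these 7 are not independent. The other 2 are WT replicate 4, where tRNA1947-AsnGTT was at 41.49 RPM and tRNA750-AsnGTT at 43.31 RPM, each above the other WT libraries.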

How the results depend on the processing

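The tRNA-His-GTG sum kept its call under every alternative run (-2.42 to -1.60). Without each library in turn the log2 fold change was -1.71 to -0.91 for tRNA-Asp-GTC, whose call was lost when WT replicate 1 or an iMLL-ENL library was left out, 0.48 to 0.64 for tRNA-Asn-GTT and 0.46 to 0.59 for tRNA-Tyr-GTA, and both of these kept their calls. The other lost calls, apart from the replicate block described below, were tRNA-Asp-GTC at -0.52 after quantile normalization and -1.32 when scaled to the other tRNA rows. tRNA-Asn-GTT was at 0.28 after TMM scaling, 0.15 after TMM scaling over all rows (chosen after seeing the data) and 0.65 when scaled to the other tRNA rows, and tRNA-Tyr-GTA at 0.27, 0.13 and 0.63 under the same settings. The cause of these losses was not tested.

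The count of tRNA-His-GTG copies called lower was 4 when scaled to the other tRNA rows. The count of tRNA-Asp-GTC copies called lower was 15 after either TMM scaling, median centring, sample weights or a filter at 50 RPM, 3 after quantile normalization and 0 when scaled to the other tRNA rows, and 0 to 15 without each library in turn. The count of tRNA-Asn-GTT copies called higher was 0 after either TMM scaling, quantile normalization or scaling to the other tRNA rows, 3 after median centring, and 0 to 11 without each library. The count of tRNA-Tyr-GTA copies called higher was 1 after TMM scaling or quantile normalization, 0 after TMM scaling over all rows or scaling to the other tRNA rows, and 2 to 7 without each library. At 50 RPM no tRNA-Asn-GTT or tRNA-Tyr-GTA copy was left to test.

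Without each library in turn the log2 ratio differences were -0.70 to -0.51 for tRNA-His-GTG to tRNA-Asp-GTC, -2.99 to -2.13 to tRNA-Asn-GTT and -2.88 to -2.15 to tRNA-Tyr-GTA, -2.35 to -1.43 for tRNA-Asp-GTC to tRNA-Asn-GTT and -2.25 to -1.45 to tRNA-Tyr-GTA. There the smallest exact p is 0.0571, so no call is possible. For tRNA-Asn-GTT to tRNA-Tyr-GTA they were -0.05 to 0.10, below 0 without iMLL-ENL replicate 1 (-0.034) or 2 (-0.044) or WT replicate 1 (-0.050) or 2 (-0.020).

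The labels do not say that a replicate number marks a shared mouse, batch or day. Deviations of same-numbered libraries correlated at 0.39, 0.29, -0.13 and 0.42, so not every pair deviated together, while 6 of 8 libraries correlated best with their own number, a hint from the data and not the design that leaves a pairing possible. With the replicate block tRNA-Asp-GTC stayed at -1.42 with an adjusted p of 0.0578, and 1 of its copies was called lower. The 5 called ratios kept their values (-0.60, -2.57, -2.56, -1.97 and -1.95) with an exact sign-flip p of 0.15 after adjustment, where 4 pairs cannot go below 0.125.

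Reversals of values that were not called were as follows. tRNA-Gly-GCC was at -0.19 after TMM scaling, -0.33 after TMM scaling over all rows, -0.028 after median centring, -0.13 with sample weights and -0.16 to 0.23 without each library in turn (below 0 without WT replicate 2). tRNA-His-ATG was at -0.077 after TMM scaling over all rows. tRNA511-AspGTC was at 0.085 when scaled to the total of the rows, 0.12 without the 5 most abundant rows and -0.35 to 0.14 without each library in turn (above 0 without WT replicate 2). tRNA101-TyrGTA was at -0.063 after TMM scaling, -0.19 over all rows, -0.039 after quantile normalization and -0.0099 with sample weights. Depth limits tRNA-His-ATG most, with about 7 reads in WT replicate 3.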
